A study of Mus musculus with 9 samples.

Results

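The natriuretic peptide system of the juvenile mouse ovary was followed through 6 genes, the 3 peptide genes Nppa, Nppb and Nppc and the 3 receptor genes Npr1, Npr2 and Npr3. The members were the rows that carry these symbols in the deposited expression tables, and all 6 were found among 52025 genes. The libraries came from ovaries of Kunming mice on postnatal day (PD) 14, PD15 and PD16, with 3 libraries on each day and 9 in all. These days span the initial formation of the follicular antrum, the fluid-filled space that opens inside the growing follicle. The mice of all 3 groups shared the strain and carried no transgene or treatment according to the labels, so age alone defined the groups, and the day of each library was taken from its label with no independent check. Values are FPKM, the number of fragments per kilobase of transcript and per 1000000 fragments sequenced, so levels of different genes can be compared. The libraries of a day are described as independent ovaries. Whether each ovary came from a separate mouse is not given in the sources used here, so p-values measure only the spread between these libraries.

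Natriuretic peptides are small ring-shaped hormones cut from larger precursors. Nppa and Nppb encode the atrial and the B-type peptide of the heart, and Nppc encodes C-type natriuretic peptide (CNP), which acts mostly within the tissue that makes it. Npr1 encodes the guanylyl cyclase receptor for the atrial and B-type peptides, Npr2 the guanylyl cyclase receptor for CNP, and Npr3 the clearance receptor, which lacks a cyclase and takes up all of these peptides. In the ovarian follicle, CNP from mural granulosa cells acts on NPR2 of cumulus and granulosa cells, and the cyclic GMP formed there reaches the oocyte, slows the breakdown of cyclic AMP and holds meiosis.

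The depth of the libraries, estimated from the step between low FPKM values, was 20.4 to 28.7 in units of 1000000 fragments, with a median of 24.2. The labels call the tissue ovary and the source granulosa cells. The oocyte was well represented: the summed FPKM of 12 oocyte markers lay between 1343 and 1973 in the 9 libraries, and none of the 12 was listed at 0 throughout. The 12 granulosa cell markers summed to 2820 to 3664 FPKM. The libraries are therefore treated below as mixtures of ovarian cell types, in which fewer cells of a type and less RNA per cell cannot be told apart. Pearson's r of log2(FPKM + 1) between any pair of libraries, over the genes tested, lay between 0.977 and 0.990, and no pair was identical.

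The promoters of the ligand and the receptor genes whose libraries separated PD14 from PD16 are shown first, since all PD16 libraries lay below all PD14 libraries for Nppc and Npr3 and above them for Npr2. The 250 bases before the RefSeq start of each gene (GRCm38.p6) are printed in the direction of transcription. Nppc lies on the minus strand at chr1:86666291-86670571 with 3 exons, and its promoter stretch is chr1:86670574-86670823. Npr2 lies on the plus strand at chr4:43631935-43651244, with the stretch chr4:43631685-43631934. Npr3 lies on the minus strand at chr15:11839896-11907287, with the stretch chr15:11907372-11907621. Capitals mark matches, on either strand, to 4 short motifs: TATAAA, a box of the core promoter, GGGCGG, the box of the factor SP1, TGACG, the core of the cyclic AMP response element, and AGGTCA, a nuclear receptor site.
Nppc: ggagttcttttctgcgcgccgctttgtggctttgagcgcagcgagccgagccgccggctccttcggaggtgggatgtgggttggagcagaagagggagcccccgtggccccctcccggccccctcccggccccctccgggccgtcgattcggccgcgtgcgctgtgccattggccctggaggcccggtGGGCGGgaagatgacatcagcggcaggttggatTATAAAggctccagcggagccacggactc
Npr2: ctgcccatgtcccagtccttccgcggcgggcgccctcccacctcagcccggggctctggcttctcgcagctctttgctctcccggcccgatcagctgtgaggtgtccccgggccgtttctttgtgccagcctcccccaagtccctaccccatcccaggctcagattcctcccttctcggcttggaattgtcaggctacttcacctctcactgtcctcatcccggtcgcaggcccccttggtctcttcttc
Npr3: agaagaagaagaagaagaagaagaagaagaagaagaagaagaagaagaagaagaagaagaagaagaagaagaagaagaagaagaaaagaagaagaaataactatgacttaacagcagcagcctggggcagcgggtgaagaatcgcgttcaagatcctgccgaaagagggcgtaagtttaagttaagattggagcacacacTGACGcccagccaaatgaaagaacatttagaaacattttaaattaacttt

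The Nppc stretch held TATAAA starting 29 bases before the start and GGGCGG starting 62 bases before it. The Npr2 stretch held none of the 4 motifs. The Npr3 stretch held TGACG starting 50 bases before the start, and it opened with a run of 27 AAG repeats. Among 32851 mouse promoters of the same length, 12.4% held TATAAA, 32.7% GGGCGG, 17.8% TGACG and 14.0% AGGTCA on either strand. The GC content was 69.2% for Nppc, 64.4% for Npr2 and 38.8% for Npr3. These matches describe the letters only, and no binding was measured.

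Among the peptide genes, only Nppc was expressed above a trace. Nppa, at chr4:148000722-148002079 on the plus strand, was listed at 0.0472, 0 and 0.0568 FPKM in the 3 PD14 libraries. It was listed at 0.0908, 0 and 0 FPKM on PD15 and at 0 in all 3 libraries of PD16. These values correspond to 1, 0 and 1 fragments on PD14 and 2, 0 and 0 on PD15, so its presence rested on 4 fragments in 9 libraries. The antisense gene Gm13054 covers 61.5% of the Nppa exon bases, and the library kit does not mark strand, so those fragments cannot be assigned to either gene with certainty. Nppb, at chr4:147985788-147987205 on the plus strand, was listed at 0 in every library. A value of 0 in these tables is not always an absence of RNA, since the widely used insulin-degrading enzyme gene Ide was also listed at 0 in all 9 libraries. The atrial muscle gene Myl7 and the cardiac gene Actc1, markers of the tissue that makes most Nppa and Nppb, averaged 0.0858 and 0.0981 FPKM. Tnni3 made up most of the heart muscle list, at 39.1 FPKM on average.

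Nppc was highest on PD14. It measured 29.0, 21.6 and 30.6 FPKM in the 3 PD14 libraries, 18.6, 18.7 and 18.5 FPKM on PD15, and 19.1, 16.9 and 14.6 FPKM on PD16. Every PD14 library lay above all 6 later libraries, and the ranges of PD15 and PD16 overlapped. The day means were 27.1 ± 4.81 (SD, n = 3), 18.6 ± 0.0827 and 16.9 ± 2.29 FPKM, so the mean on PD16 was 0.622 times that on PD14. These values rested on 386 to 741 fragments a library. Counting error alone was 3.67 to 5.09% of the value, while the 3 PD15 libraries differed by less than that.

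Nppc fell from PD14 to PD16 by 0.65 on the log2(FPKM + 1) scale (SE 0.13, 95% interval -0.93 to -0.36, limma with Benjamini-Hochberg adjustment over 15495 genes, adjusted p = 0.0294). It was 1 of the 4 members tested that passed in this comparison, against a background of 4.25% of all tested genes in either direction and 1.89% lower. From PD14 to PD15 the difference was -0.50 (SE 0.13, limma adjusted p = 0.123), which did not pass, and from PD15 to PD16 it was -0.14 (SE 0.13, adjusted p = 0.692). The call on PD16 against PD14 was not stable: it held in 4 of 9 fits that left out a library and in 9 of 12 other settings. Without PD14 replicate 1 the adjusted p was 0.0915, without PD14 replicate 3 it was 0.1003, and without PD16 replicates 1, 2 or 3 in turn it was 0.0590, 0.0721 and 0.0659. Across all of those fits the difference stayed between -0.80 and -0.55.

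**Figure D1:**
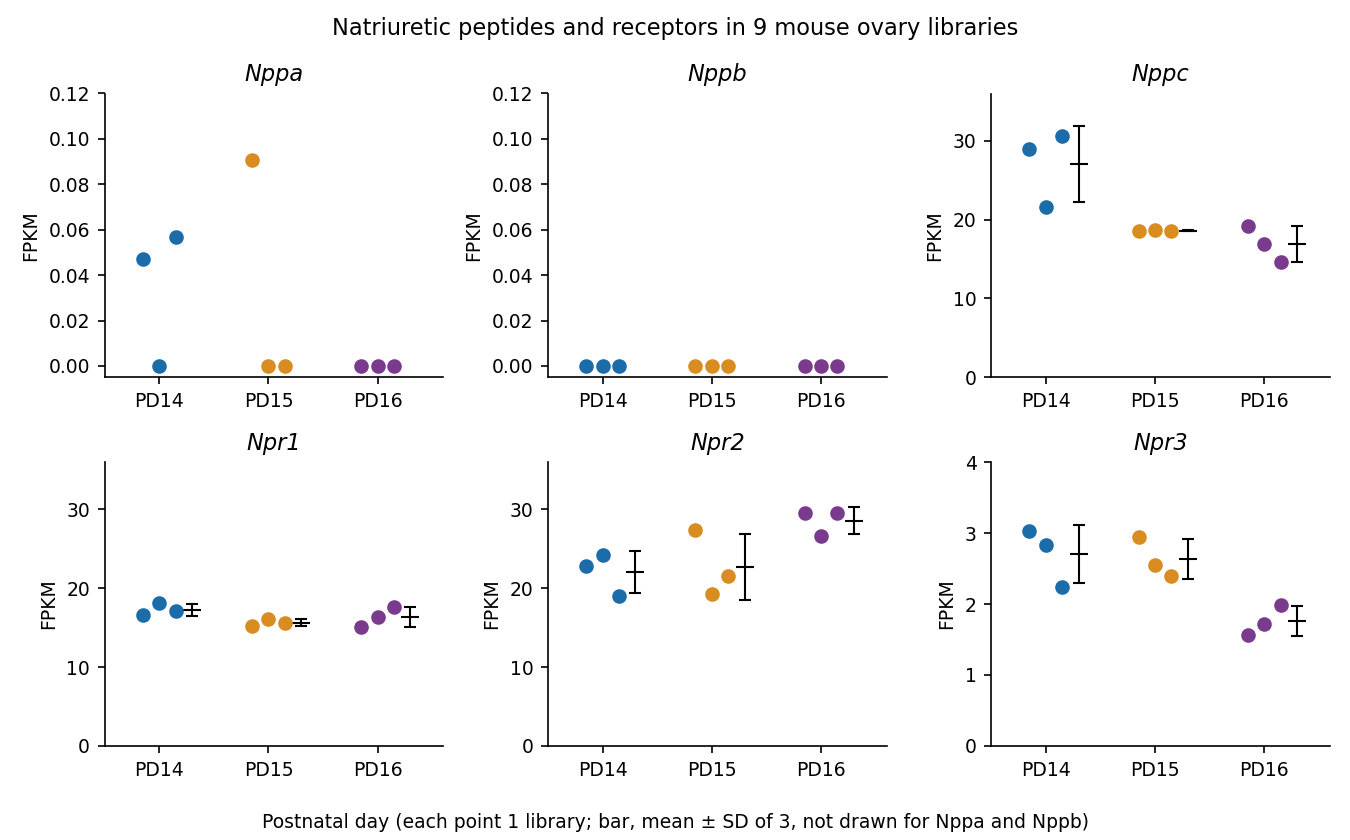
FPKM of the 6 genes (vertical axes, scaled by gene) in each of the 9 libraries, grouped by postnatal day (horizontal axes). Points are libraries, bars are the mean and SD of 3 libraries and are not drawn for Nppa and Nppb, and the 3 Nppc points of PD14 lie above all 6 later ones.

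Of the receptor genes, Npr2 was the most abundant. It measured 22.8, 24.2 and 19.0 FPKM on PD14, 27.4, 19.3 and 21.6 FPKM on PD15, and 29.5, 26.6 and 29.6 FPKM on PD16. The PD16 libraries lay above all PD14 libraries, but PD15 replicate 1 reached into the PD16 range. The values rested on 1810 to 3512 fragments a library. The day means were 22.02 ± 2.68 (SD, n = 3), 22.7 ± 4.17 and 28.6 ± 1.73 FPKM. The difference of PD16 from PD14 was 0.37 on the log2(FPKM + 1) scale (SE 0.13, 95% interval 0.08 to 0.65) and did not pass the test (limma adjusted p = 0.127). The differences of PD15 from PD14 (0.04, limma adjusted p = 0.923) and of PD16 from PD15 (0.33, adjusted p = 0.275) did not pass either. Their intervals ran from -0.25 to 0.32 and from 0.05 to 0.61. The antisense gene Gm12473 shares 266 exon bases with Npr2, 5.70% of its exons, and measured 8.14 to 16.1 FPKM over the 9 libraries. Its day means were 11.6 ± 4.07 (SD, n = 3), 13.3 ± 2.44 and 15.2 ± 0.364 FPKM, so its mean was also highest on PD16, but its libraries overlapped on all 3 days (exact permutation p = 0.332), and its part in the Npr2 values was not tested.

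Npr3, the clearance receptor, was the least abundant receptor and was lowest on PD16. It measured 3.03, 2.83 and 2.24 FPKM on PD14, 2.95, 2.55 and 2.40 FPKM on PD15, and 1.57, 1.72 and 1.98 FPKM on PD16. All 3 PD16 libraries lay below all 6 earlier ones, and the PD14 and PD15 ranges overlapped. The mean on PD16, 1.76 ± 0.208 FPKM (SD, n = 3), was 0.651 times the mean of 2.70 ± 0.411 FPKM on PD14 and 0.667 times the mean of 2.63 ± 0.282 FPKM on PD15. On the log2(FPKM + 1) scale the difference of PD16 from PD14 was -0.42 (SE 0.11, 95% interval -0.66 to -0.18) and did not pass the test (limma adjusted p = 0.0579). That of PD16 from PD15 was -0.40 (SE 0.11, adjusted p = 0.133), and that of PD15 from PD14 was -0.02 (SE 0.11, adjusted p = 0.944). The annotated exon length gave about 351 to 705 fragments a library, but for Npr3 these did not come out as whole numbers as they did for Nppc, Npr1 and Npr2. The transcript length behind the Npr3 values is not known, so its fragment numbers are approximate. The opposite-strand gene Gm5144 shares 321 exon bases with Npr3, 3.42% of its exons. It has no FPKM value here, so its part in the Npr3 values was not tested. Adding 1 to an FPKM compresses the change of a low gene. With 0.1 or 0.5 added in place of 1, however, this difference did not pass either. On fragments recovered from the annotated exon length and tested with limma and voom, the difference of PD16 from PD14 was -0.62 and passed (adjusted p = 0.0230). That setting was chosen after the data were seen and was the only 1 of 11 other settings that called Npr3.

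Npr1, the receptor for the atrial and B-type peptides, was expressed although its own ligand genes were at or near 0. It measured 16.6, 18.1 and 17.1 FPKM on PD14, 15.2, 16.1 and 15.6 FPKM on PD15, and 15.1, 16.3 and 17.7 FPKM on PD16. The PD15 libraries lay below all PD14 libraries, and PD16 overlapped both days. The values rested on 1666 to 2148 fragments a library. The gene lies on the minus strand at chr3:90450591-90465866. The differences were -0.14 for PD15 from PD14 (limma adjusted p = 0.368), -0.08 for PD16 from PD14 (adjusted p = 0.518) and 0.06 for PD16 from PD15 (adjusted p = 0.744). Their 95% intervals were -0.28 to 0.01, -0.22 to 0.07 and -0.08 to 0.20. The antisense gene Gm16048 shares 11.7% of the Npr1 exon bases and reached at most 0.315 FPKM.

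No member passed in the comparisons of PD15 with PD14 and of PD16 with PD15, where limma called 0.678% and 0.729% of all tested genes. At an unadjusted p under 0.05, the first comparison held 1 of the 4 tested members (Nppc) and the second held 2 (Npr2 and Npr3). Voom called 0 members in either. By limma p, Nppc ranked 401 of 15495 genes in the first, and Npr2 and Npr3 ranked 1546 and 505 in the second. Many other genes thus had as low a p. No share of all tested genes under an unadjusted p of 0.05 is given, here or for the lists below. Counts at that threshold are therefore not read as a change. Libraries did not overlap for 2 of 4 members in PD15 against PD14 (Nppc and Npr1), against 20.6% of all tested genes. For PD16 against PD14 the count was 3 of 4 (Nppc, Npr2 and Npr3) against 28.5%, and for PD16 against PD15 it was 1 of 4 (Npr3) against 19.6%. These comparisons share libraries and are not independent of each other.

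**Figure D2:**
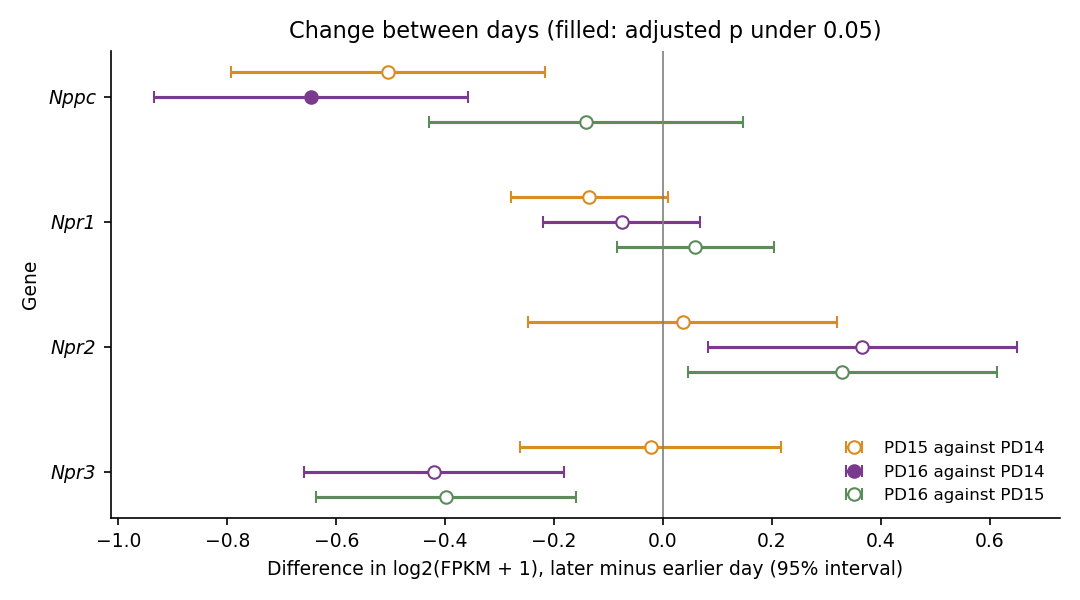
Difference in log2(FPKM + 1) between days (horizontal axis, later minus earlier day) for the 4 tested members (vertical axis), one colour per comparison, with 95% intervals from limma. Only the point for Nppc in PD16 against PD14, at -0.65, is filled, which marks an adjusted p under 0.05.

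An exact permutation test of each member over the 280 ways to divide 9 libraries into 3 days of 3 gave another view, in which the smallest possible p is 0.00357. Nppc differed among days (exact permutation p = 0.0143) and so did Npr3 (exact permutation p = 0.0357), while Npr2 (exact permutation p = 0.132) and Npr1 (exact permutation p = 0.154) did not pass. Of all tested genes, 18.5% had an exact p under 0.05, and adjusted over all of them the exact p was 0.178 for Nppc and 0.228 for Npr3. For Nppa, on its 4 fragments, the exact permutation p was 0.679. Leaving out PD16 replicate 1 or 2 raised the exact permutation p of Npr3 to 0.0857 or 0.0750. For Nppc it rose to 0.05 without any one of the 3 PD15 libraries or without PD16 replicate 2, and to 0.0607 without PD16 replicate 3.

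The order of the 4 expressed members changed over the 3 days. On PD14, Nppc had the highest mean, 27.1 FPKM, followed by Npr2 at 22.02, Npr1 at 17.3 and Npr3 at 2.70 FPKM, although the libraries of Nppc and Npr2 overlapped. On PD15, Npr2 came first at 22.7 FPKM, and all of its libraries lay above those of Nppc. On PD16, Npr2 stood alone at 28.6 FPKM, while Nppc at 16.9 and Npr1 at 16.4 FPKM overlapped. Npr3 lay below the other 3 in every library. Over all 9 libraries, Npr2 was more abundant than 83.6% of the tested genes, Nppc than 80.1%, Npr1 than 74.1% and Npr3 than 22.5%.

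A plain FPKM ratio within a library does not depend on how libraries were scaled, whereas the tests used the log2 ratio of FPKM + 1, which can. The exact permutation p-values of the 3 ratios were the same with 0.1 added in place of 1. The ratio of Nppc FPKM to Npr2 FPKM was 1.27, 0.892 and 1.61 on PD14, 0.679, 0.968 and 0.859 on PD15, and 0.648, 0.635 and 0.492 on PD16. All PD16 ratios lay below all earlier ratios, and PD14 and PD15 overlapped. The log2 ratio of FPKM + 1 averaged 0.28 ± 0.41 (SD, n = 3) on PD14, -0.26 ± 0.25 on PD15 and -0.73 ± 0.21 on PD16, and it differed among days (exact permutation p = 0.0143). Without PD16 replicate 3 the exact permutation p was 0.0857.

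The clearance receptor was lowest on PD16 also relative to the cyclase receptor for CNP. The ratio of Npr3 to Npr2 FPKM was 0.133, 0.117 and 0.118 on PD14, 0.108, 0.132 and 0.111 on PD15, and 0.0531, 0.0649 and 0.0670 on PD16. PD16 stood apart from both earlier days, which overlapped. The log2 ratio of FPKM + 1 went from -2.64 ± 0.08 (SD, n = 3) on PD14 and -2.70 ± 0.17 on PD15 to -3.42 ± 0.13 on PD16 (exact permutation p = 0.0214), and it kept an exact p under 0.05 in all 9 tests that left out a library. The ratio of Npr1 to Npr2, at -0.33 ± 0.16 (SD, n = 3), -0.50 ± 0.29 and -0.77 ± 0.13 on the same scale, did not differ past the threshold (exact permutation p = 0.143).

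In the summed FPKM of the 3 receptors, Npr2 made up 52.3% ± 2.34 (SD, n = 3) on PD14, 55.1% ± 4.69 on PD15 and 61.2% ± 2.34 on PD16 (exact permutation p = 0.0536). The Npr3 share was 6.41% ± 0.659 (SD, n = 3), 6.42% ± 0.330 and 3.76% ± 0.328 (exact permutation p = 0.0357), and the Npr1 share was 41.3% ± 2.88, 38.4% ± 4.61 and 35.1% ± 2.04 (exact permutation p = 0.168). The 3 ratios and 3 shares are built from the same 4 genes, and their p-values are not adjusted for the 6 tests.

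**Figure D3:**
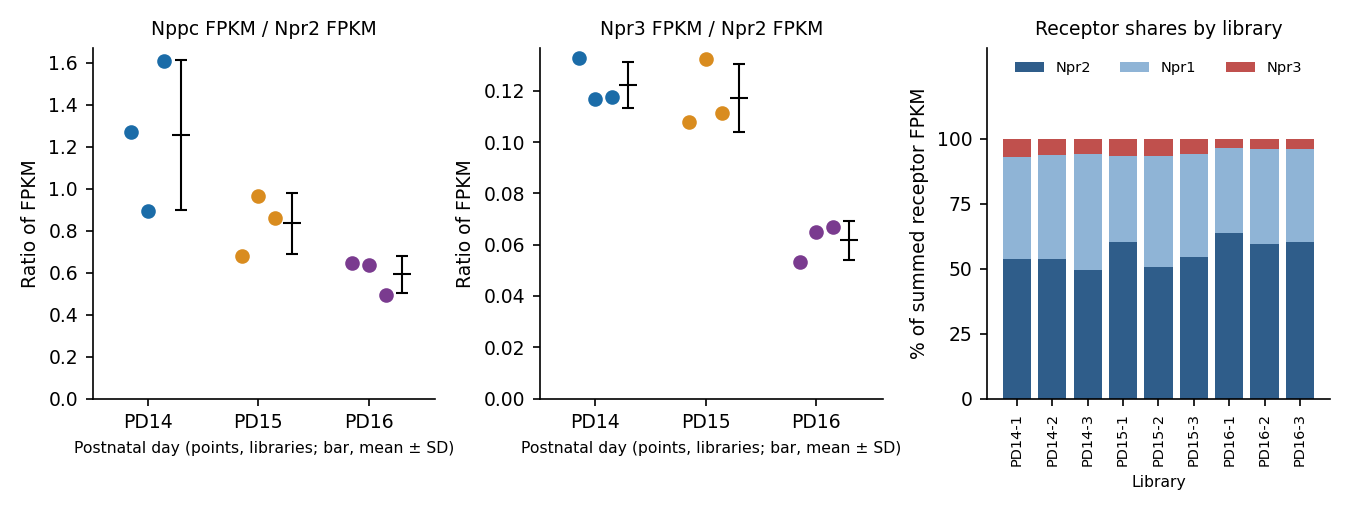
Ratio of Nppc to Npr2 FPKM and of Npr3 to Npr2 FPKM by postnatal day (points are libraries, bars are the mean and SD of 3), and the percentage of the summed receptor FPKM held by Npr2, Npr1 and Npr3 in each library. The Npr3 to Npr2 ratios of PD16, from 0.0531 to 0.0670, lie below all 6 earlier ones.

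The rest of the pathway was described with 56 genes in 7 lists, from the proteases that cut the precursors to the enzymes that use or destroy cyclic GMP, of which 31 were expressed highly enough to be tested. Of these, limma called 3 for PD16 against PD14, 2 higher and 1 lower, and voom called 4, 2 higher and 2 lower. The 3 limma calls are 9.68% of the 31, beside 4.25% of all tested genes, and the median difference was -0.02 beside 0.01 for all genes. That 4.25% belongs to limma and is no background for voom calls, here or below. Voom tested 14686 genes, and its counts over all of them are given in the section on processing. The list of known regulators of Nppc or Npr2 held 12 of the 31 genes and 2 of the 3 calls, Esr2 and Bmp15. For PD15 against PD14 and PD16 against PD15, limma called 0 of 31, with 5 and 9 genes at an unadjusted p under 0.05, and voom called 1 in each. The 5 and 9 have no share of all tested genes beside them. By limma p, Npr1 at 0.0631 ranked 2657 of 15495 in the former comparison, and Npr2 at 0.0274 ranked 1546 in the latter.

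Among the proteases that mature or destroy the peptides, Mme changed. It encodes neprilysin, the membrane protease that degrades natriuretic peptides. Mme measured 5.20, 4.45 and 4.03 FPKM on PD14, 4.15, 5.65 and 5.36 FPKM on PD15, and 3.20, 2.31 and 2.84 FPKM on PD16. All PD16 libraries lay below all 6 earlier ones. The fall from PD14 to PD16 was -0.56 on the log2(FPKM + 1) scale (SE 0.13, limma adjusted p = 0.0431), but it kept its call in 1 of 9 fits that left out a library and in 7 of 12 other settings. Leaving out any library but PD15 replicate 1 raised its adjusted p to between 0.0538 and 0.117. Its level relative to PD15 differed by -0.68 (SE 0.13, adjusted p = 0.0526).

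Of the precursor-cutting proteases, 0 of 2 tested were called by limma or voom on any pair of days, with 1 of them (Pcsk6) under an unadjusted p of 0.05 for PD16 against each earlier day. Furin, the protease that cuts the CNP precursor, averaged 10.2 ± 0.767 (SD, n = 3) FPKM on PD14 and 10.8 ± 0.693 FPKM on PD16, a difference of 0.07 (limma adjusted p = 0.593). Pcsk6, a relative of Furin that activates the corin protease, was the most abundant of the list at 62.8 ± 3.00 (SD, n = 3) FPKM on PD14 and 50.9 ± 3.51 FPKM on PD16, a difference of -0.30 (limma adjusted p = 0.191). Corin, which cuts the atrial precursor in the heart, stayed under 1 FPKM, between 0.296 and 0.621 in the 9 libraries.

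Cyclic GMP can also be made by soluble guanylyl cyclase, which answers to nitric oxide. Its subunit genes Gucy1a1 (in the tables as Gucy1a3) and Gucy1b1 (as Gucy1b3) averaged 19.3 ± 1.06 (SD, n = 3) and 9.35 ± 1.06 FPKM on PD14, beside 17.3 FPKM for Npr1. They averaged 17.5 ± 1.13 (SD, n = 3) and 10.5 ± 1.08 FPKM on PD16. Of 9 other guanylyl cyclase genes, 3 were tested and limma and voom called 0 in every comparison. At an unadjusted p under 0.05 there were 1, 0 and 2 genes for PD15 against PD14, PD16 against PD14 and PD16 against PD15. These counts, too, lack a share of all tested genes and are not read as a change.

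The genes that respond to cyclic GMP were mostly below the level needed for testing. The kinase genes Prkg1, at 0.705 to 1.14 FPKM, and Prkg2, at 0.0878 to 0.278 FPKM, were not tested. Vasp, a substrate of these kinases, was the most abundant effector at 28.3 ± 1.12 (SD, n = 3) FPKM on PD14 and 28.1 ± 2.54 FPKM on PD16 (difference -0.02, SE 0.07, limma adjusted p = 0.923). Of 10 effector genes, 2 were tested, and limma and voom called 0 with 0 at an unadjusted p under 0.05.

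Among 13 phosphodiesterase genes that act on or are governed by cyclic GMP, 7 were tested. Limma and voom called 0 in each comparison, with 1 gene (Pde1b) at an unadjusted p under 0.05, in PD16 against PD15. Pde3a, the enzyme of the oocyte that breaks down cyclic AMP and is inhibited by cyclic GMP, measured 3.78 ± 0.578 (SD, n = 3) FPKM on PD14 and 3.54 ± 0.492 FPKM on PD16, a difference of -0.07 (limma adjusted p = 0.747). Pde5a, which destroys cyclic GMP, had the highest mean of the list over the 9 libraries, 5.81 FPKM, though Pde1b was higher on PD15 (6.48 against 5.57 FPKM). Pde5a measured 6.23 ± 0.423 (SD, n = 3) FPKM on PD14 and 5.63 ± 0.477 FPKM on PD16, a difference of -0.12 (limma adjusted p = 0.383).

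Of the 4 genes that supply GTP, the substrate of the cyclases, limma and voom called 0 in each comparison. Impdh2, a rate-limiting enzyme of guanine nucleotide synthesis, was the most abundant and was under an unadjusted p of 0.05 for PD16 against each earlier day. It measured 42.4, 38.7 and 39.8 FPKM on PD14 and 45.2, 45.4 and 44.0 FPKM on PD16, a difference of 0.15 (SE 0.05, limma adjusted p = 0.127).

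**Figure D4:**
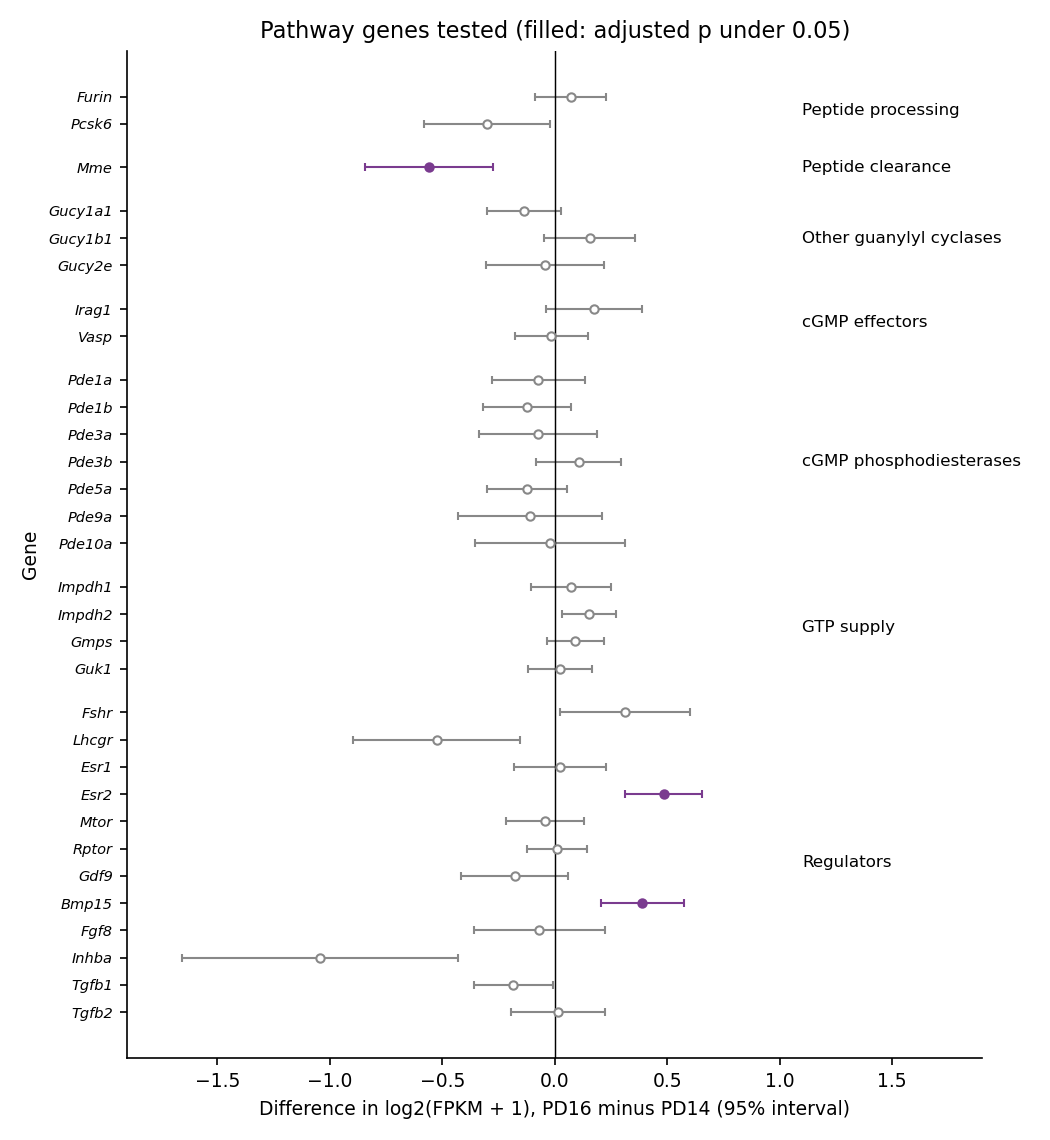
Difference in log2(FPKM + 1) of PD16 from PD14 (horizontal axis, 95% intervals from limma) for the 31 tested pathway genes (vertical axis), grouped by list. Filled points mark an adjusted p under 0.05, which Mme (-0.56), Esr2 (0.48) and Bmp15 (0.39) reached.

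Among 14 genes known to govern Nppc or Npr2 in the follicle, 12 were tested. Limma called 2, both higher on PD16 than on PD14, and voom called 3 in that comparison, 2 higher and 1 lower. Esr2, the estrogen receptor of granulosa cells, measured 46.7, 55.2 and 53.9 FPKM on PD14, 56.2, 61.0 and 54.7 FPKM on PD15, and 71.5, 71.3 and 75.9 FPKM on PD16. Its PD16 libraries stood above all others, and the difference from PD14 was 0.48 (SE 0.08, limma adjusted p = 0.0151), which was lost without PD16 replicate 1 (adjusted p = 0.0568) and relative to granulosa markers (adjusted p = 0.0797). Bmp15, an oocyte growth factor that acts on cumulus cells, rose from 49.7 ± 3.03 (SD, n = 3) to 65.4 ± 4.27 FPKM, a difference of 0.39 (SE 0.08, limma adjusted p = 0.0331) that kept its call in 3 of 9 fits with a library left out and in 9 of 12 other settings. Without PD14 replicates 1, 2 or 3 its adjusted p was 0.0991, 0.0805 and 0.0714, without PD16 replicates 1 or 2 it was 0.113 and 0.0870, and without PD15 replicate 2 it was 0.0515.

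Fshr, Mtor and Gdf9 of the same list did not pass. Fshr, the receptor for follicle-stimulating hormone on granulosa cells, measured 11.6, 15.0 and 16.0 FPKM on PD14, 13.2, 12.3 and 13.0 FPKM on PD15, and 21.2, 16.9 and 15.6 FPKM on PD16. The PD16 libraries overlapped those of PD14 (difference 0.31, SE 0.13, limma adjusted p = 0.185) and lay above those of PD15 (difference 0.44, SE 0.13, adjusted p = 0.159). Mtor, the growth-sensing kinase, measured 10.2 ± 0.334 (SD, n = 3) and 9.92 ± 0.833 FPKM, a difference of -0.04 (SE 0.08, limma adjusted p = 0.783). Gdf9, another oocyte growth factor and the most abundant of the list, measured 242 ± 30.6 (SD, n = 3) and 212 ± 7.68 FPKM, a difference of -0.18 (SE 0.11, limma adjusted p = 0.351).

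Markers of the cells that make these transcripts moved in more than one direction between PD14 and PD16. Of 12 granulosa cell markers, all tested, 4 were called, beside 4.25% of all tested genes. Amh and Esr2 were higher, and Cyp19a1 and Kitl were lower. Amh, the anti-Müllerian hormone of growing follicles, rose by 0.47 (SE 0.08, limma adjusted p = 0.0223), while Cyp19a1, the aromatase of estrogen synthesis, fell by 0.84 (SE 0.17, adjusted p = 0.0316). Kitl, the ligand of the oocyte receptor Kit, fell by 0.50 (SE 0.12, adjusted p = 0.0494), and the calls of Amh, Cyp19a1 and Kitl held in 6, 4 and 1 of 9 fits with a library left out. Like Nppc, Cyp19a1 was highest in the PD14 libraries, at 6.61, 3.77 and 4.95 FPKM, and lay between 1.89 and 3.51 FPKM in the 6 later ones. The summed granulosa list overlapped between PD14 (2992 to 3664 FPKM) and PD16 (2947 to 3480 FPKM). Inha, the inhibin alpha subunit, made up 67.6% of that sum over the 9 libraries. With FPKM divided by the sum of 8 granulosa markers of the same library, Inha among them, a setting chosen after the data were seen, the Nppc difference of PD16 from PD14 was -0.59 (limma adjusted p = 0.0355). That sum left out Inhba, Cyp19a1, Fshr and Esr2 of the 12 and consisted mostly of Inha, so it is a limited measure of granulosa cell content.

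Other cell type lists also shifted. Beside the limma calls below, limma called 4.25% of all tested genes for PD16 against PD14. For PD15 against PD14 and PD16 against PD15 the shares were 0.678% and 0.729%. The summed oocyte list was 1475 to 1813 FPKM on PD14, 1876 to 1973 on PD15 and 1343 to 1457 on PD16, without overlap between days. For PD16 against PD14, limma called 1 of the 12 oocyte genes, Bmp15, which was higher, while the median difference of the list was -0.27 and voom called 5, 1 higher and 4 lower. For PD16 against PD15 it called 2 lower, Nlrp5 and the zona pellucida gene Zp2 (-0.61, limma adjusted p = 0.0427, held in 1 of 9 fits with a library left out), and voom called 5, all lower. The summed surface and oviduct epithelium list, with 4 of 6 tested genes (Krt8, Krt18, Krt19 and Lgals7) called lower on PD16 than on PD14, was 75.2 to 84.6 FPKM on PD14 and 56.2 to 62.4 FPKM on PD16. The endothelial list, with 1 of 8 called lower (Tie1), was 77.1 to 84.6 and 70.6 to 73.4 FPKM. The fat list was 6.42 to 7.82 FPKM on PD14 and 4.05 to 5.84 FPKM on PD16, with 1 of 1 tested gene (Plin1) called lower. Plin1 made up 94.8% of that sum, and the means of Adipoq, Cidec and Cfd, all under 1 FPKM, were not lower on PD16. The heart muscle list was 39.3 to 47.6 and 31.5 to 38.2 FPKM, with 0 of 1 called by limma or voom and 1 (Tnni3) at an unadjusted p under 0.05. The summed levels of the remaining lists overlapped between PD14 and PD16. The theca list held 1623 to 2245 and 1229 to 1637 FPKM, the stromal list 619 to 709 and 625 to 640, and the smooth muscle list 297 to 338 and 319 to 418. In the smooth muscle list 2 of 6 genes were called, Cnn1 higher (0.61, limma adjusted p = 0.0348) and Rgs5 lower (-0.62, adjusted p = 0.0294). These marker calls were not stable: with a library left out, Krt18 kept its call in 8 of 9 fits, Krt8 in 6, Lgals7 in 5, Plin1 in 4, Krt19, Cnn1 and Rgs5 in 3 each and Tie1 in 0. The immune list held 7.67 to 9.22 and 8.28 to 9.62 FPKM, and the red cell list 105 to 147 and 60.8 to 116. On PD15 the red cell sum was 46.4 to 63.2 FPKM, below all PD14 libraries, with 1 of 5 genes called lower for PD15 against PD14. Nppc also lay below PD14 on PD15, as libraries did not overlap for 20.6% of all tested genes in either direction. Unlike the red cell sum, Nppc stayed below all PD14 libraries on PD16. The epithelium, endothelial and fat sums of PD15 also lay below those of PD14, at 69.3 to 74.7, 71.7 to 75.3 and 4.47 to 5.05 FPKM. Single genes carried several sums: Hsd3b1 made up 91.0% of the theca sum, Acta2 80.7% of the smooth muscle sum and Hba-a1 67.4% of the red cell sum. The part of these shifts in the values of Nppc, Npr2 and Npr3 was not tested.

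The protein-coding genes whose pattern over the 9 libraries was most like each member were picked by Pearson's r of log2(FPKM + 1) among 12485 genes, as a description. For Nppc these were Pip5k1b (r = 0.978, Spearman's rho = 0.833), Emp3 (r = 0.968, rho = 0.683) and Ccdc112 (r = 0.965, rho = 0.833). For Npr2 they were Unc13b (r = 0.962, rho = 0.933), Mettl2 (r = 0.952, rho = 0.983) and Rlf (r = 0.949, rho = 0.900). For Npr3 they were Dbndd1 (r = 0.956, rho = 0.983), Vps53 (r = 0.950, rho = 0.950) and Paox (r = 0.948, rho = 0.933), and for Npr1 they were Pias4 (r = 0.926, rho = 0.917), Cpt1c (r = 0.920, rho = 0.967) and Foxj2 (r = 0.918, rho = 0.900). The 9 points share their depth and day, and the closest genes of so many are expected to reach a high r. Emp3, the most abundant of these companions, measured 52.6 ± 6.49 (SD, n = 3) FPKM on PD14, 41.8 ± 0.792 on PD15 and 41.0 ± 2.42 on PD16, and was chosen for its likeness to Nppc.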

How the data were processed

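Ovaries of PD14, PD15 and PD16 mice were sequenced as 9 bulk RNA libraries. The authors extracted total RNA with TRIzol, made libraries with a kit that does not mark strand, and deposited FPKM values per gene. The submitters' processing notes name HISAT2 2.0.5 and the build mm10. The counter and annotation are not given in the sources used here. Depth was estimated from the steps between low FPKM values: 94.9 to 95.3% of values under 20 fragments were whole within 0.05. Positions came from GENCODE on GRCm38 and promoters from RefSeq.

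Genes whose FPKM averaged over 1 in any of the 3 day groups entered the test on log2(FPKM + 1) with limma 3.58.1 in R 4.3.3, with all 9 libraries in one fit, a trend and Benjamini-Hochberg adjustment over 15495 genes at 0.05. Ratios, shares and members among days were tested two-sided by exact permutation of the F ratio. With 3 against 3 libraries a pairwise exact test cannot go below 0.10. Adding 1 understates changes of low genes. The limma procedure was tested on simulated data for PD16 against PD14 with 200 changed of 15495 genes. It recovered 52.5% of those changed by 0.5, 91.0% of those by 1 and 97.0% of those by 2 (log2), with 6, 10 and 15 false calls. The simulated noise was independent between genes, so shifts shared by many genes were not covered. Named genes were the 6 members, pathway genes called in any comparison, the most abundant gene of each list, 10 pathway genes picked for their function, and the 3 genes most like each member. Myl7, Actc1, Tnni3, the leading or low genes of cell type lists, Emp3 as an example, the called cell type markers, Pde1b and the overlapping antisense genes were added after their values were seen. The members and lists were chosen with earlier results of these data known. The heart muscle, immune, red cell, fat, theca, stromal and smooth muscle lists were also summed. Alternatives covered pseudocounts, filters, scaling, the variance model, the libraries used and a replicate block.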

Additional observations from a re-analysis of the deposited data

How the results depend on the processing

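All settings listed for the tests were run, beside the voom and granulosa-relative settings, which were chosen after the data were seen. The fall of Nppc from PD14 to PD16 stayed negative in all 21 alternatives, with adjusted p from 0.0157 to 0.1003. It was -0.65 and no longer passed with no filter (adjusted p = 0.0822), with only the 6 libraries compared (0.0644) and with a replicate block (0.0581). The replicate numbers do not pair the libraries (same-number correlations of deviations -0.21 to 0.16), and the block left 24, 227 and 56 genes called for PD15 against PD14, PD16 against PD14 and PD16 against PD15, beside 105, 659 and 113. It changed no other call of a member. Npr3 in PD16 against PD14 passed only with voom (-0.62). The uncalled difference of Npr3 between PD15 and PD14 turned positive relative to granulosa markers (0.0498) and without PD14 replicates 1 or 2 or PD15 replicate 3 (0.0420, 0.00608 and 0.0240, in a range from -0.12 over all libraries left out). That of Npr2 turned negative without PD14 replicate 3 (-0.06) or PD15 replicate 1 (-0.10), with 0.14 as its highest value. The cause of these shifts was not tested. All other differences of members kept their sign and side of the threshold.

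With a library left out, the Nppc difference of PD16 from PD14 ranged from -0.80 to -0.55. Exact permutation p-values ranged from 0.0143 to 0.0607 for Nppc, 0.0250 to 0.246 for Npr2, 0.0143 to 0.0857 for Npr3, 0.00357 to 0.0857 for Nppc to Npr2, 0.0357 to 0.239 for Npr1 to Npr2, 0.0464 to 0.339 for the Npr1 share and 0.0214 to 0.164 for the Npr2 share. Npr2, the Npr1 to Npr2 ratio and the Npr1 share passed only without PD15 replicate 1, and the Npr2 share only without PD15 replicate 1 or 2. The counts of called genes ranged from 3 to 92, from 92 to 660 and from 14 to 125 in the same order of comparisons, the lowest without PD15 replicate 1, PD16 replicate 1 and PD15 replicate 1. Without a filter they were 29, 172 and 24. The 6 libraries compared gave 46 and 323 in the first pair of comparisons. A sum of 1000000 gave 397 for PD16 against PD14, and a mean FPKM above 5 gave 63 for PD15 against PD14. Voom gave 168, 893 and 181 of the 14686 genes it tested, in the same order of comparisons. Dividing by granulosa markers gave medians over all genes of 0.09, 0.06 and -0.03, beside 0.01 in each comparison without it. Depth limits Nppa, which rested on 4 fragments.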

Other observations

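Inhba, the activin subunit gene of granulosa cells, was 122, 53.9 and 85.5 FPKM on PD14 and lay between 34.4 and 57.1 FPKM in the 6 later libraries. Its difference of PD16 from PD14 was -1.04 (SE 0.27, limma adjusted p = 0.0637) and did not pass. Lhcgr, the luteinizing hormone receptor, was 13.3, 16.0 and 13.9 FPKM on PD14 and 11.3, 7.85 and 10.2 FPKM on PD16, a difference of -0.52 (SE 0.17, limma adjusted p = 0.101). Its PD16 libraries lay below all PD14 libraries, and 28.5% of all tested genes did not overlap in either direction. The alpha-globin gene Hba-a1 was 87.4 ± 13.2 (SD, n = 3) FPKM on PD14 and 33.7 ± 5.62 FPKM on PD15, a fall of 1.35 on the log2(FPKM + 1) scale (SE 0.23, limma adjusted p = 0.0381) that held in 2 of 9 fits with a library left out. Nlrp5, a maternal-effect gene of the oocyte, was highest on PD15, at 153 ± 9.36 (SD, n = 3) FPKM against 90.8 ± 16.3 FPKM on PD14 and 92.5 ± 9.55 FPKM on PD16. Its differences passed for PD15 from PD14 (0.76, SE 0.13, limma adjusted p = 0.0377) and for PD16 from PD15 (-0.72, SE 0.13, adjusted p = 0.0439), and they kept their calls in 3 and 2 of 9 fits with a library left out.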
